A study of Mus musculus with 30 samples.

Results

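Lipid droplets are the stores of neutral lipid in a cell, and the genes described here encode proteins of their coat, their formation and their hydrolysis: *Cidea*, *Cideb*, *Cidec*, *Plin2*, *Plin4*, *Plin5*, *Fitm1*, *Pnpla2*, *G0s2* and *Mgll*. They were picked by name, and each of the 10 genes was read on the probe set that carries its symbol alone, 1 probe set per gene, among 18820 genes measured in this way. Expression was measured with Affymetrix Mouse Gene 1.1 ST arrays in 30 livers, 1 array per liver, and a level is a log2 intensity after Robust Multichip Averaging (RMA). The mice were male, about 8 weeks old and on a C57BL/6 background, and lacked both transcription factors (PPARα/CREB3L3-/-), PPARα alone (PPARα-/-), CREB3L3 alone (CREB3L3-/-) or neither (wild-type, WT). Each genotype was studied after 4 days of ketogenic diet, eaten freely up to death, and after a 16-h fast. Each group held 4 mice, except for the PPARα-/- mice, with 3 in either regimen. Deficiency was present in the whole body and not only in hepatocytes, the PPARα allele was that of B6;129S4-Pparatm1Gonz/J mice, CREB3L3-/- mice had been backcrossed to C57BL/6, the combined mice came from crossing these lines, and no mice fed chow are among the arrays used here, so neither regimen is an untreated baseline.

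Triglyceride in a droplet is enclosed by a phospholipid monolayer with a coat of perilipins, which limit the access of lipases, and CIDE proteins at contact sites let droplets exchange lipid and grow. Adipose triglyceride lipase, encoded by *Pnpla2*, removes the first fatty acid from triglyceride and is held back by the protein of *G0s2*, whereas the enzyme of *Mgll* cleaves the last remaining ester bond. In hepatocytes droplets take up fatty acids that reach the liver during fasting or fat feeding and release them for oxidation or for secretion in lipoproteins. PPARα is a nuclear receptor that binds DNA as a partner of RXR, and CREB3L3 is a membrane-bound factor of the bZIP class that is released by proteolysis.

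The promoters of 4 start sites are shown because their genes differed in which single loss lowered them after the fast: *Cidec* was called lower in CREB3L3-/- livers, and *Plin5* and *Fitm1* in PPARα-/- livers. Each window holds 300 bases of RefSeq sequence (GRCm38.p6), 250 before and 50 after the start site, written 5′ to 3′ on the strand of the gene, with any nuclear receptor half-site AGGTCA in capitals. The starts of *Cidec* lie on the minus strand, in chr6:113435711-113436010 and chr6:113434715-113435014, *Plin5* is on the minus strand in chr17:56117499-56117798, and *Fitm1* is on the plus strand in chr14:55575424-55575723.
*Cidec*, upstream start: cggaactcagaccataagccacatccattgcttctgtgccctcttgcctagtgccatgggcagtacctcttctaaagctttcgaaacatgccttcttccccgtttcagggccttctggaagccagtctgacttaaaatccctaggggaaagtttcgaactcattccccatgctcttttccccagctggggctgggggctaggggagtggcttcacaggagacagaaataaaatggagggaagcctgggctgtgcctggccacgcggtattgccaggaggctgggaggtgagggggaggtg
*Cidec*, downstream start: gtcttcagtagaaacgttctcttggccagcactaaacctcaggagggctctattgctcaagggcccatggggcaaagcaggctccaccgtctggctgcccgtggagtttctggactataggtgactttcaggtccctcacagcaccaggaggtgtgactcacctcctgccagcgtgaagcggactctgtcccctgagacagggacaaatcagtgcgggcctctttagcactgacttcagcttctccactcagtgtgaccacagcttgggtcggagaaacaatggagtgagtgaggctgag
*Plin5*, upstream start: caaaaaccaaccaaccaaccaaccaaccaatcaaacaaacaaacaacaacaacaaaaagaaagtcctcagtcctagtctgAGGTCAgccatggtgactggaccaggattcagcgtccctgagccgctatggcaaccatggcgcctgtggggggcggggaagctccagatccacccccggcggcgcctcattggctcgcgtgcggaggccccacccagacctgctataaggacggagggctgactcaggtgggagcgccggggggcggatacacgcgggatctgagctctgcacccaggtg
*Fitm1*: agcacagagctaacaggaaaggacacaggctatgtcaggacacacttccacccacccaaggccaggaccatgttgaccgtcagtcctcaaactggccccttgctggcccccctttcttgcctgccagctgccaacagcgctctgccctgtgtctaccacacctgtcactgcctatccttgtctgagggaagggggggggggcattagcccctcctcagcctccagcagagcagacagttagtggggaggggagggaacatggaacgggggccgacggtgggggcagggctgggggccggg
The motifs given next were searched on both strands of 12 windows covering 9 of the 10 genes. No window of *Cidea* was searched. The direct repeat AGGTCANAGGTCA, which contains the half-site, was in none of these windows and in 0.0396% of 32851 mouse promoters of this length. The half-site alone was found at position -170 from the upstream start of *Plin5*, at 13 from its other start and at -218 from the start of *Plin2*, so in 3 of 12 windows, against 16.3% of all promoters. TGACGTCA, the palindromic cAMP response element, was in none of the 12 windows and in 1.79% of all, and the shorter TGACGT, contained in it, was in none and in 7.51%. A match in such a window is only a match of letters, and elements farther from the start lie outside it.

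*Creb3l3* read 4.29 to 5.36 in every liver of a CREB3L3-deficient genotype, against 9.49 to 11.28 in all other livers. On the ketogenic diet *Ppara* read 6.62 to 7.95 in livers of both PPARα-deficient genotypes, against 8.01 to 10.54 in CREB3L3-/- and WT livers, and after the fast 7.25 to 9.35, against 9.51 to 10.41. The PPARα allele removes part of the gene, and where the probe set lies relative to that part is not known here. *Ppara* was also lower in CREB3L3-/- than in WT livers on the diet, at -1.85 (adjusted p = 2.68e-06, SE 0.265, limma). Array medians lay between 4.22 and 4.38, and arrays of a group correlated at 0.978 to 0.99. *Cidea* was below the median of its array in all 30 livers, *Fitm1* in 1, and the other 8 genes in none. In whole liver, fewer cells of a type and less RNA per cell cannot be told apart.

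**Figure D1:**
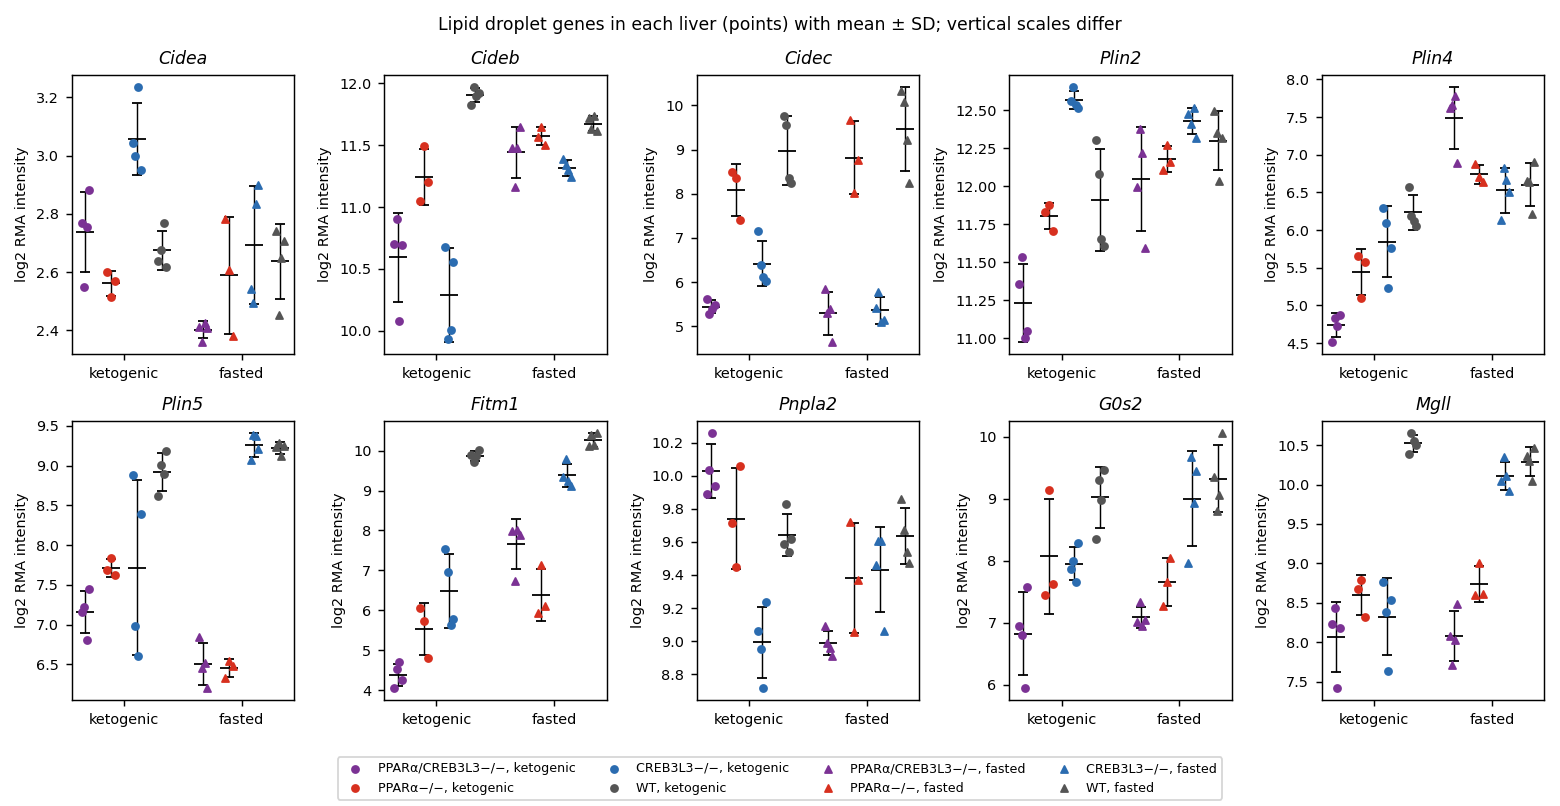
Log2 RMA intensity (vertical axes, which differ between genes) of the 10 lipid droplet genes in each liver, with points for livers and bars for mean ± SD, in the 4 genotypes on the ketogenic diet (circles) and after the fast (triangles). *Cidec* is lowest in livers without CREB3L3 in both regimens, whereas *Plin5* is low after the fast in livers without PPARα, at 6.21 to 6.85 against 9.07 to 9.38 in the others.

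The question put to these genes was how far each depended on PPARα, on CREB3L3 or on both, and whether this changed with the regimen. The cut-offs were those of the study, which applied them to an intensity-based moderated t-statistic, whereas limma was fitted here to all 30 arrays. A gene counted as changed when limma gave an unadjusted P under 0.001 with a fold over 1.2. The share of all 35556 probe sets called by this rule is given as background, and the adjusted p beside each difference is corrected over all of them. On the ketogenic diet 8 of the 10 genes were called in PPARα/CREB3L3-/- against WT livers, all of them lower (background 14.0% in either direction, 6.87% lower), 4 in PPARα-/- livers, all lower (background 10.9%, 4.81% lower), and 8 in CREB3L3-/- livers, 6 lower and 2 higher (background 21.4%, 8.56% lower). The median log2 difference of the 10 genes in these comparisons was -1.63, -0.84 and -1.14, against 0.01, 0.01 and -0.06 over all probe sets. After the fast 7 genes were called in PPARα/CREB3L3-/- against WT livers, 6 lower and 1 higher (background 6.98%, 2.79% lower), 4 in PPARα-/- livers, all lower (background 4.00%, 1.77% lower), and only *Cidec* in CREB3L3-/- livers, lower (background 1.39%, 0.599% lower). Medians in the same order of knockouts were -1.43, -0.45 and -0.19, against -0.02, -0.0018 and 0.01 over all probe sets. The 3 knockouts of a regimen share their WT livers, so these counts are not independent.

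**Figure D2:**
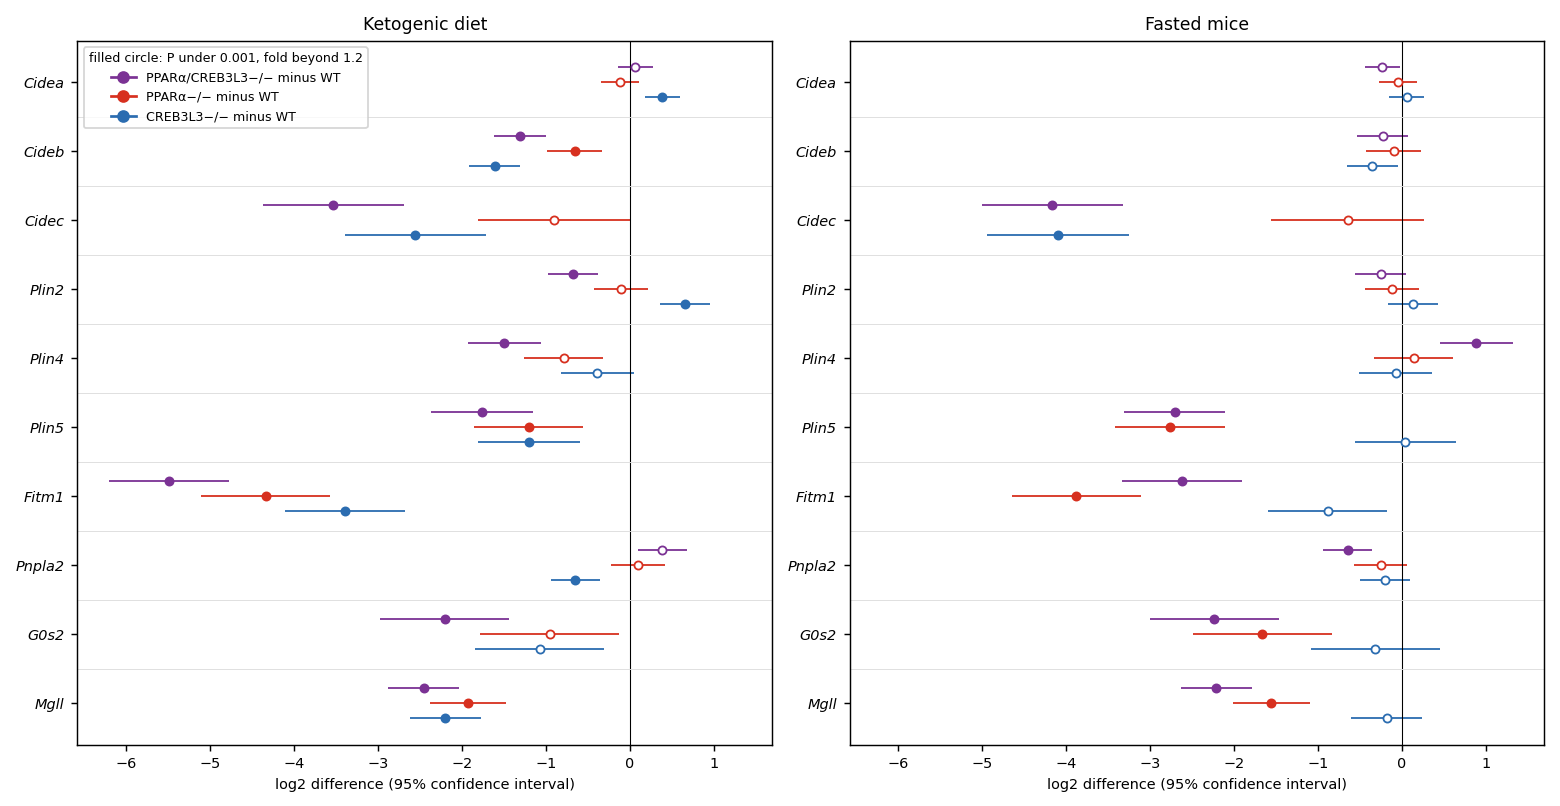
Log2 difference from WT with its 95% confidence interval (horizontal axis) for each gene in PPARα/CREB3L3-/-, PPARα-/- and CREB3L3-/- livers on the ketogenic diet (left) and after the fast (right); filled circles are genes called at P under 0.001 with a fold beyond 1.2. After the fast CREB3L3-/- livers differ from WT by a call in *Cidec* alone, whereas on the ketogenic diet 8 genes are filled.

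The CIDE genes differed widely in their levels and in their response. *Cidec*, which encodes a promoter of droplet fusion and of storage in large droplets, was lower without CREB3L3 in both regimens. Under ketogenic feeding it read 5.62, 5.28, 5.39 and 5.48 in PPARα/CREB3L3-/- livers, 8.48, 8.34 and 7.40 in PPARα-/- livers, 7.16, 6.38, 6.11 and 6.03 in CREB3L3-/- livers and 9.75, 9.55, 8.35 and 8.25 in WT livers. Every liver without CREB3L3 lay below every liver with it. The log2 difference from WT was -3.53 (adjusted p = 1.9e-07, SE 0.41) in PPARα/CREB3L3-/- livers and -2.56 (adjusted p = 1.31e-05, SE 0.41) in CREB3L3-/- livers, or 11.6-fold and 5.88-fold lower. PPARα-/- livers overlapped WT, with a log2 difference of -0.90 (adjusted p = 0.198, SE 0.44).

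After the fast *Cidec* was at 5.84, 5.30, 5.39 and 4.66 in PPARα/CREB3L3-/- livers, 9.68, 8.02 and 8.75 in PPARα-/- livers, 5.42, 5.78, 5.11 and 5.15 in CREB3L3-/- livers and 10.33, 10.07, 9.22 and 8.24 in WT livers. Again the groups with and without CREB3L3 did not overlap, and the spread within WT and PPARα-/- livers was wide. Compared with WT it was 18-fold lower in PPARα/CREB3L3-/- livers, at -4.17 (adjusted p = 7.49e-08, SE 0.41), and 17.1-fold lower in CREB3L3-/- livers, at -4.10 (adjusted p = 1.01e-06, SE 0.41). PPARα-/- livers differed from WT by -0.65 (SE 0.44), which missed the threshold. The effect of CREB3L3 loss was also called within PPARα-deficient mice: PPARα/CREB3L3-/- minus PPARα-/- livers gave -2.63 (adjusted p = 0.0014, SE 0.44) on the ketogenic diet and -3.52 (adjusted p = 3.2e-05, SE 0.44) after the fast. The interaction, which is the effect of losing both factors minus the sum of both single effects, was -0.08 on the diet, with a 95% confidence interval of -1.32 to 1.16, and 0.58 after the fast, with an interval of -0.66 to 1.82. In CREB3L3-/- livers *Cidec* read higher on the ketogenic diet than after the fast without overlap, by 1.05 (adjusted p = 0.0438, SE 0.41), which missed the threshold.

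*Cideb* encodes the CIDE protein of hepatocytes that serves the lipidation of very low density lipoproteins. It was among the brightest of these probe sets and was called lower in all 3 knockouts on the ketogenic diet and in none after the fast. On the diet its levels were 10.70, 10.90, 10.08 and 10.69 in PPARα/CREB3L3-/- livers, 11.05, 11.49 and 11.20 in PPARα-/- livers, 10.68, 9.93, 10.00 and 10.55 in CREB3L3-/- livers and 11.83, 11.97, 11.90 and 11.92 in WT livers. No knockout liver reached the WT range, and the CREB3L3-/- and PPARα/CREB3L3-/- livers overlapped each other. The log2 difference from WT was -1.31 (adjusted p = 1.31e-07, SE 0.15) in PPARα/CREB3L3-/-, -0.66 (adjusted p = 0.00396, SE 0.16) in PPARα-/- and -1.61 (adjusted p = 1.72e-09, SE 0.15) in CREB3L3-/- livers. The PPARα-/- call was lost without WT replicate 2 or 4 or PPARα-/- replicate 1 or 3, at log2 differences of -0.65 to -0.56. It was also lost in a fit of the ketogenic arrays alone, at the same difference of -0.66.

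Losing both factors lowered *Cideb* by less than the sum of both single losses, at -1.31 against -2.27, and this interaction of 0.96 (adjusted p = 0.00139, SE 0.22) was called. It was lost in a fit of the ketogenic arrays alone and without PPARα-/- replicate 1, at 0.86. After the fast the 30-array fit called no knockout: the levels were 11.48, 11.16, 11.48 and 11.65 in PPARα/CREB3L3-/-, 11.57, 11.65 and 11.50 in PPARα-/-, 11.39, 11.34, 11.30 and 11.24 in CREB3L3-/- and 11.72, 11.63, 11.73 and 11.61 in WT livers. The 4 CREB3L3-/- livers all read below the 4 WT livers, at a log2 difference of -0.36 (adjusted p = 0.321, SE 0.15), and a fit of the fasted arrays alone called this difference. The effect of CREB3L3 loss on *Cideb* differed between the regimens by -1.26 (adjusted p = 5.27e-05, SE 0.21) and that of losing both factors by -1.08 (adjusted p = 0.000654, SE 0.21), ketogenic minus fasted.

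*Cidea* encodes the CIDE protein of brown fat and is known to be low in healthy liver. Its signal was at 2.36 to 3.24 in all 30 livers. In ketogenic mice it read 3.04, 2.998, 3.24 and 2.95 in CREB3L3-/- livers and 2.64, 2.67, 2.77 and 2.62 in WT livers, which did not overlap, and the difference of 0.38 (adjusted p = 0.00401, SE 0.10) was called. This call, on a probe set below the array medians, was lost with array weights, with median centring, in a fit of the ketogenic arrays alone and without WT replicate 1, 2 or 4 or CREB3L3-/- replicate 1, 2 or 3, at log2 differences of 0.32 to 0.40. No other comparison of a knockout with WT called *Cidea*. Because *Cidea* marks fat cells, adipocyte markers were checked: of 8, 7 were measured, and *Adipoq*, *Retn*, *Lep* and *Plin1* were below the array median in 30 of 30 livers, while *Lipe*, *Cd36* and *Fabp4* were above it in all.

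Of the perilipins, *Plin5* was lower without PPARα in both regimens, and *Plin2* was called against WT on the ketogenic diet alone. *Plin4* in PPARα/CREB3L3-/- livers was called lower on the diet and higher after the fast, the second call depending on single livers. *Plin5* encodes the perilipin of oxidative tissues, which links droplets to mitochondria. After the fast it read 6.85, 6.46, 6.52 and 6.21 in PPARα/CREB3L3-/- livers, 6.33, 6.55 and 6.48 in PPARα-/- livers, 9.07, 9.38, 9.37 and 9.21 in CREB3L3-/- livers and 9.23, 9.29, 9.11 and 9.25 in WT livers. The livers fell into a low set without PPARα and a high set with it, whether or not CREB3L3 was present. The log2 difference from WT was -2.71 (adjusted p = 3.87e-07, SE 0.29) in PPARα/CREB3L3-/- livers, -2.77 (adjusted p = 1.91e-06, SE 0.32) in PPARα-/- livers and 0.04, with a 95% confidence interval of -0.57 to 0.64, in CREB3L3-/- livers. With 6.55-fold and 6.8-fold lower signal in both PPARα-deficient groups, the interaction was 0.02 (95% confidence interval -0.87 to 0.91).

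On the ketogenic diet *Plin5* was lower in every knockout, with levels of 7.15, 7.22, 6.81 and 7.45 in PPARα/CREB3L3-/-, 7.69, 7.84 and 7.62 in PPARα-/-, 8.89, 6.98, 6.60 and 8.39 in CREB3L3-/- and 8.61, 9.004, 8.89 and 9.18 in WT livers. Of the 4 CREB3L3-/- livers, replicate 1 was in the WT range, replicate 4 just below it, and the remaining 2 were at or below the level of PPARα/CREB3L3-/- livers. Differences from WT were -1.76 (adjusted p = 4.67e-05, SE 0.29) in PPARα/CREB3L3-/-, -1.21 (adjusted p = 0.00763, SE 0.32) in PPARα-/- and -1.20 (adjusted p = 0.00192, SE 0.29) in CREB3L3-/- livers. In the same order of replicates the mean log2 of 7 hepatocyte markers in the CREB3L3-/- livers was 12.19, 11.63, 11.88 and 12.23, so the livers high in *Plin5* were also those high in hepatocyte markers, and the part of this in the result was not tested. The CREB3L3-/- call was lost without WT replicate 2 or 4 or CREB3L3-/- replicate 2 or 3, at -1.18 to -0.83, and in a fit of the ketogenic arrays alone. The PPARα-/- call was lost without WT replicate 2, 3 or 4 or any one PPARα-/- liver (-1.27 to -1.12), in the ketogenic arrays alone, by the intensity-based moderated t-statistic of the methods and after a repeated quantile normalization or with a replicate block.

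Between regimens *Plin5* moved in opposite directions in single knockouts. In PPARα-/- livers it was higher on the ketogenic diet than after the fast in all livers, by 1.26 (adjusted p = 0.00985, SE 0.34), just short of the threshold, and in CREB3L3-/- livers it was lower on the diet in all livers, at -1.54 (adjusted p = 0.000112, SE 0.29). The effect of PPARα loss was weaker on the diet by 1.56 (adjusted p = 0.0328, SE 0.45) and that of CREB3L3 loss was stronger, at -1.24 (adjusted p = 0.0318, SE 0.42), neither called. Without CREB3L3-/- ketogenic replicate 1, whose *Plin5* was at the WT level, the second difference was -1.63 and was called.

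*Plin2* encodes the perilipin that coats droplets in most cell types, and its protein is stabilised by lipid. It was the brightest of these probe sets. On the ketogenic diet it read 11.35, 11.53, 11.00 and 11.04 in PPARα/CREB3L3-/- livers, 11.83, 11.87 and 11.70 in PPARα-/- livers, 12.56, 12.65, 12.53 and 12.51 in CREB3L3-/- livers and 12.30, 12.08, 11.65 and 11.61 in WT livers. CREB3L3-/- livers lay above all WT livers and PPARα/CREB3L3-/- livers below them, and PPARα-/- livers lay within the WT range. The differences from WT were thus of opposite sign, -0.68 (adjusted p = 0.000937, SE 0.15) in PPARα/CREB3L3-/- and 0.65 (adjusted p = 0.000791, SE 0.15) in CREB3L3-/- livers, with -0.11 (95% confidence interval -0.43 to 0.22) in PPARα-/- livers. The sum of both single effects was 0.55, against -0.68 for the combined loss, and the interaction was -1.23 (adjusted p = 8.02e-05, SE 0.22). The increase in CREB3L3-/- livers was not called without WT replicate 3 or 4, which were the lower WT livers, at 0.57 and 0.55.

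After the fast no knockout changed *Plin2* past the threshold. Levels were 11.99, 12.38, 12.22 and 11.59 in PPARα/CREB3L3-/-, 12.11, 12.27 and 12.16 in PPARα-/-, 12.47, 12.41, 12.52 and 12.32 in CREB3L3-/- and 12.50, 12.35, 12.04 and 12.32 in WT livers, and each knockout overlapped WT. In PPARα/CREB3L3-/- livers *Plin2* was lower on the ketogenic diet than after the fast, at -0.81 (adjusted p = 0.000119, SE 0.15), without overlap.

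*Plin4* encodes a perilipin known from fat and muscle. On the ketogenic diet it read 4.52, 4.84, 4.73 and 4.87 in PPARα/CREB3L3-/-, 5.66, 5.09 and 5.58 in PPARα-/-, 6.30, 6.10, 5.23 and 5.76 in CREB3L3-/- and 6.57, 6.19, 6.12 and 6.06 in WT livers. PPARα/CREB3L3-/- livers were the lowest without overlap and were called against WT, at -1.49 (adjusted p = 4.31e-06, SE 0.21), whereas PPARα-/- livers, also below all WT livers, were at -0.79 (adjusted p = 0.0153, SE 0.23). After the fast the order was turned, with 7.62, 7.66, 7.78 and 6.88 in PPARα/CREB3L3-/-, 6.88, 6.70 and 6.64 in PPARα-/-, 6.13, 6.83, 6.66 and 6.50 in CREB3L3-/- and 6.65, 6.64, 6.21 and 6.91 in WT livers. Of the PPARα/CREB3L3-/- livers 3 were above all others and 1 was within the WT range. Against WT they were higher by 0.89 (adjusted p = 0.00548, SE 0.21) and against CREB3L3-/- livers by 0.96 (adjusted p = 0.00358, SE 0.21). The call against WT was lost without WT replicate 3 or without PPARα/CREB3L3-/- replicate 1, 2 or 3 (0.75 to 0.84), and that against CREB3L3-/- livers without CREB3L3-/- replicate 1 (0.83).

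The difference between the effects in both regimens was tested, which does not by itself test a change of sign. The effect of losing both factors on *Plin4* differed between the regimens by -2.38 (adjusted p = 2.29e-06, SE 0.30), ketogenic minus fasted. Within PPARα/CREB3L3-/- livers *Plin4* was 6.72-fold lower on the diet, at -2.75 (adjusted p = 1.28e-10, SE 0.21), and within PPARα-/- livers 2.45-fold lower, at -1.29 (adjusted p = 0.000336, SE 0.24), whereas WT livers overlapped between the regimens, at -0.37 (SE 0.21). *Plin4* and *Plin5* are neighbouring genes in RefSeq (GRCm38.p6) with none annotated between them, and their levels had a Pearson correlation of 0.0258 over the 30 arrays. *Plin4* overlaps the annotated span of *Hdgfl2*, and whether probes lie in the shared stretch was not tested.

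*Fitm1* encodes a membrane protein of the endoplasmic reticulum that binds triglyceride and promotes droplet formation. On the ketogenic diet it had the steepest decrease of the 10 genes in each knockout. With the ketogenic diet it was at 4.06, 4.52, 4.69 and 4.25 in PPARα/CREB3L3-/- livers, 6.07, 5.72 and 4.80 in PPARα-/- livers, 7.54, 6.97, 5.64 and 5.78 in CREB3L3-/- livers and 9.90, 9.72, 9.86 and 10.01 in WT livers. No knockout liver came near the WT range, and PPARα/CREB3L3-/- livers were close to the array medians. The differences from WT were -5.49 (adjusted p = 3.89e-12, SE 0.35) in PPARα/CREB3L3-/-, -4.34 (adjusted p = 1.81e-09, SE 0.37) in PPARα-/- and -3.39 (adjusted p = 1.05e-08, SE 0.35) in CREB3L3-/- livers, which is 45-fold, 20.3-fold and 10.5-fold lower. The single effects add up to -7.73, and the interaction was 2.24 (adjusted p = 0.00143, SE 0.51), which was not called without PPARα-/- replicate 3 (1.88). A fall of that summed size from the WT mean of 9.87 would end below all array medians. Whether these arrays could show such a fall was not tested.

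Fasted livers read 7.99, 6.72, 8.02 and 7.88 for *Fitm1* in PPARα/CREB3L3-/-, 5.94, 7.13 and 6.10 in PPARα-/-, 9.35, 9.80, 9.25 and 9.13 in CREB3L3-/- and 10.12, 10.39, 10.13 and 10.44 in WT mice. Livers without PPARα were the low ones here, whereas on the diet CREB3L3-/- livers were low as well. After the fast PPARα-/- livers had the lowest mean and not those lacking both factors. Against WT the differences were -2.62 (adjusted p = 7.21e-06, SE 0.35) in PPARα/CREB3L3-/- and -3.88 (adjusted p = 1.06e-07, SE 0.37) in PPARα-/- livers, with -0.89 (adjusted p = 0.271, SE 0.35) in CREB3L3-/- livers, which lay below all WT livers and missed the threshold. PPARα/CREB3L3-/- minus PPARα-/- livers gave 1.26 (adjusted p = 0.101, SE 0.37), and this was called without PPARα/CREB3L3-/- replicate 2 (1.57) or PPARα-/- replicate 2 (1.63). The interaction after the fast was 2.15 (adjusted p = 0.0841, SE 0.51) (background 0.762%), and it was the only one of the 10 genes called. It was lost without PPARα-/- replicate 1 (1.93) or 3 (2.01).

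The effect of CREB3L3 loss on *Fitm1* was more negative on the diet, at -2.50 (adjusted p = 0.000351, SE 0.49), as was that of losing both factors, at -2.88 (adjusted p = 0.000152, SE 0.49), while that of PPARα loss differed by -0.46, with a 95% confidence interval of -1.55 to 0.63. *Fitm1* is best known from skeletal muscle. Of 6 muscle markers, *Myh4*, *Tnnt3*, *Myl1* and *Actn3* were below the array median in 30 of 30 livers, *Ckm* in 29 and *Acta1* in 16. The summed linear intensity of the 6 on the diet was 56.3 to 71.0 without both factors, 69.6 to 79.1 without PPARα, 60.7 to 66.2 without CREB3L3 and 61.3 to 73.9 in WT livers. After the fast it was 56.1 to 64.0 without both factors, 54.1 to 57.2 without PPARα, 56.2 to 74.5 without CREB3L3 and 61.6 to 74.3 in WT livers. Fasted PPARα-/- livers were thus below all fasted WT livers in both this sum and *Fitm1*, and the part of these markers in the *Fitm1* difference was not tested.

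Among the genes of hydrolysis, *Mgll* and *G0s2* were called lower in both PPARα-deficient groups after the fast. On the diet *Mgll* was called lower in all 3 knockouts and *G0s2* in PPARα/CREB3L3-/- livers. *Mgll*, the monoacylglycerol lipase, read 8.23, 8.43, 7.42 and 8.18 in PPARα/CREB3L3-/-, 8.68, 8.79 and 8.32 in PPARα-/-, 8.76, 8.38, 7.63 and 8.53 in CREB3L3-/- and 10.39, 10.65, 10.55 and 10.50 in WT livers on the ketogenic diet. All 3 knockouts were in one low range, clearly below WT. The differences from WT were -2.46 (adjusted p = 5.51e-10, SE 0.20) in PPARα/CREB3L3-/-, -1.93 (adjusted p = 2.29e-07, SE 0.22) in PPARα-/- and -2.20 (adjusted p = 2.06e-09, SE 0.20) in CREB3L3-/- livers. The combined loss fell short of the sum of the single effects, -4.12, with an interaction of 1.67 (adjusted p = 0.000113, SE 0.30).

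After the fast *Mgll* was at 8.08, 7.71, 8.03 and 8.49 in PPARα/CREB3L3-/-, 8.60, 8.999 and 8.61 in PPARα-/-, 10.04, 10.35, 10.11 and 9.92 in CREB3L3-/- and 10.36, 10.30, 10.04 and 10.46 in WT livers. CREB3L3-/- livers overlapped WT here, and the livers without PPARα were separate from both and, between them, lower without CREB3L3, at -0.66 (adjusted p = 0.168, SE 0.22), which missed the threshold. Against WT, PPARα/CREB3L3-/- livers were at -2.21 (adjusted p = 2.57e-08, SE 0.20), PPARα-/- livers at -1.56 (adjusted p = 4.62e-05, SE 0.22) and CREB3L3-/- livers at -0.18 (95% confidence interval -0.60 to 0.24). The effect of CREB3L3 loss on *Mgll* differed between the regimens by -2.01 (adjusted p = 7.25e-06, SE 0.29), and within CREB3L3-/- livers *Mgll* was 3.44-fold lower on the diet than after the fast. The effect of PPARα loss differed by -0.37 (95% confidence interval -1.01 to 0.27).

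*G0s2* encodes the inhibitor of adipose triglyceride lipase. In mice on the ketogenic diet its levels were 6.94, 6.79, 5.95 and 7.58 in PPARα/CREB3L3-/-, 7.45, 9.13 and 7.62 in PPARα-/-, 7.86, 8.00, 7.65 and 8.28 in CREB3L3-/- and 8.35, 9.31, 8.98 and 9.46 in WT livers. Only the combined loss was called, at -2.21 (adjusted p = 5.5e-05, SE 0.37), without overlap with WT. PPARα-/- livers, of which 1 read as high as WT, were at -0.96 (adjusted p = 0.118, SE 0.40) and CREB3L3-/- livers, all below WT, at -1.08 (adjusted p = 0.0279, SE 0.37). After the fast *G0s2* was at 7.02, 7.33, 6.94 and 7.04 in PPARα/CREB3L3-/-, 7.27, 7.65 and 8.04 in PPARα-/-, 7.96, 9.67, 8.93 and 9.44 in CREB3L3-/- and 9.35, 8.80, 9.07 and 10.05 in WT livers. Both PPARα-deficient groups were below all WT livers, at -2.24 (adjusted p = 0.000147, SE 0.37) and -1.66 (adjusted p = 0.0117, SE 0.40), and CREB3L3-/- livers overlapped WT. The PPARα-/- call was lost without WT replicate 4 (-1.42), the highest WT liver, or without PPARα-/- replicate 1 (-1.47) or 2 (-1.66).

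*Pnpla2*, the lipase held back by the product of *G0s2*, was lower in CREB3L3-/- livers on the ketogenic diet and highest in those lacking both factors. Levels were 9.89, 10.04, 10.26 and 9.94 in PPARα/CREB3L3-/-, 9.71, 9.45 and 10.06 in PPARα-/-, 9.06, 8.95, 8.72 and 9.24 in CREB3L3-/- and 9.59, 9.83, 9.54 and 9.62 in WT livers. Every CREB3L3-/- liver lay below and every PPARα/CREB3L3-/- liver above the WT range. The difference from WT was -0.65 (adjusted p = 0.00064, SE 0.14) in CREB3L3-/- livers and 0.39 (adjusted p = 0.0534, SE 0.14) in PPARα/CREB3L3-/- livers, the second not called, and PPARα/CREB3L3-/- minus CREB3L3-/- livers gave 1.04 (adjusted p = 1.65e-06, SE 0.14). The interaction was 0.94 (adjusted p = 0.00113, SE 0.21) and was lost without PPARα-/- replicate 2 (0.80).

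After the fast *Pnpla2* instead had its lowest mean in livers without both factors, at 9.09, 8.99, 8.96 and 8.91 in PPARα/CREB3L3-/-, 9.72, 9.06 and 9.37 in PPARα-/-, 9.46, 9.61, 9.60 and 9.06 in CREB3L3-/- and 9.86, 9.67, 9.54 and 9.47 in WT livers. Only the combined loss was called, at -0.65 (adjusted p = 0.00274, SE 0.14), with no overlap with WT. Its effect differed between the regimens by 1.04 (adjusted p = 0.000652, SE 0.20), and within PPARα/CREB3L3-/- livers *Pnpla2* was 2.06-fold higher on the diet than after the fast. In WT livers the 2 regimens differed by 0.01 (95% confidence interval -0.29 to 0.30).

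**Figure D3:**
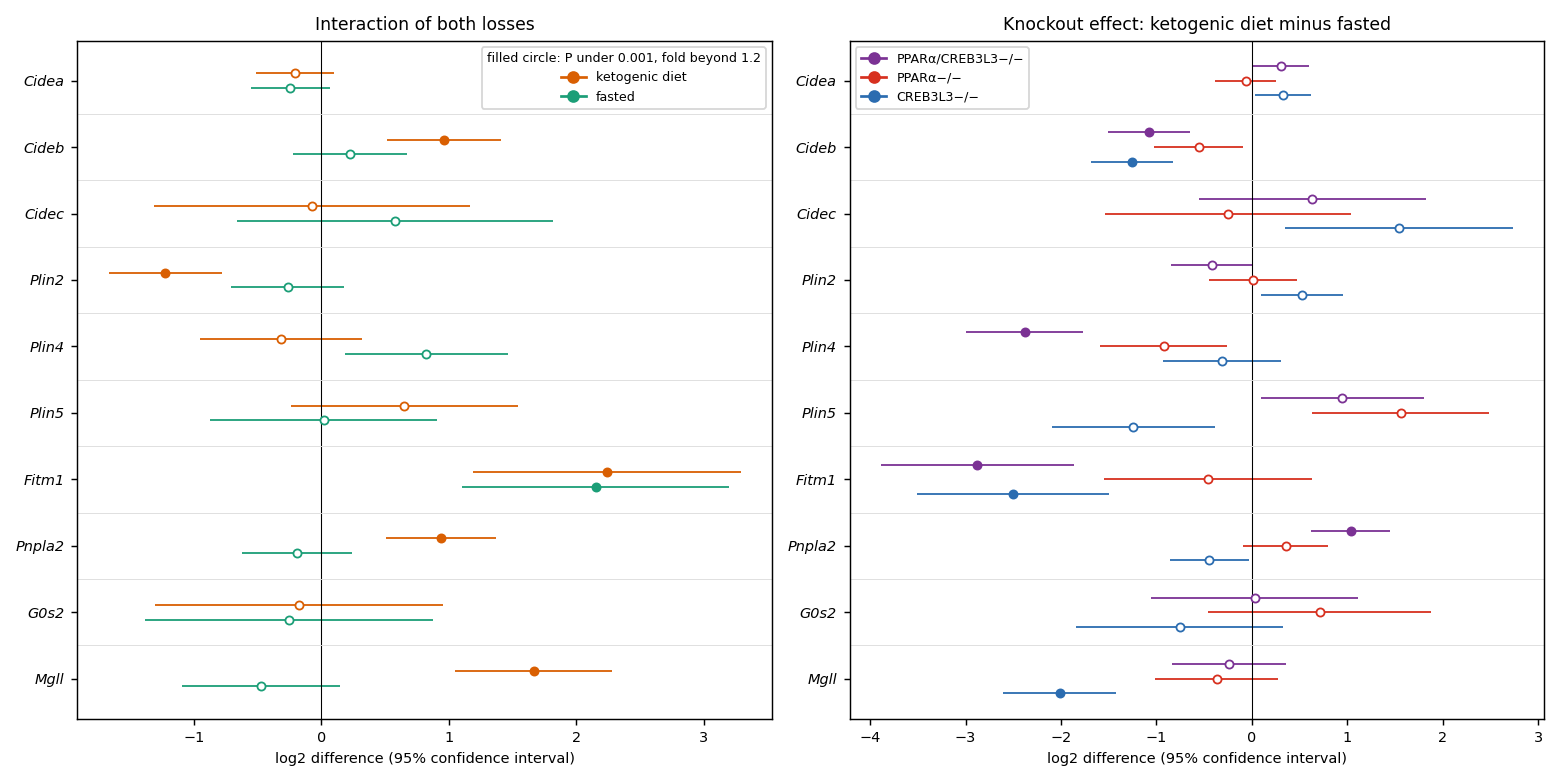
Left, interaction of both losses for each gene, which is the effect of the combined loss minus the sum of both single effects, on the ketogenic diet and after the fast. Right, effect of each knockout on the ketogenic diet minus its effect after the fast. Horizontal axes are log2 differences with 95% confidence intervals, and filled circles are called genes: 5 interactions on the diet, 1 after the fast.

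Comparing the knockouts with each other, CREB3L3 loss in mice without PPARα changed 2 of the 10 genes on the ketogenic diet, *Cideb* and *Cidec*, both lower (background 2.42%), and *Cidec* alone after the fast, lower (background 1.67%). The *Cideb* difference, -0.65 (adjusted p = 0.0255, SE 0.16), was lost in a fit of the ketogenic arrays alone and without PPARα-/- replicate 2 or 3 or PPARα/CREB3L3-/- replicate 3, at -0.67 to -0.48. PPARα loss in mice without CREB3L3 changed 4 genes on the diet, with *Plin2*, *Plin4* and *Fitm1* lower and *Pnpla2* higher (background 20.4%), and 5 after the fast, with *Plin5*, *Fitm1*, *G0s2* and *Mgll* lower and *Plin4* higher (background 5.28%). On the diet *Plin5* and *Mgll* did not differ by a call between PPARα/CREB3L3-/- and CREB3L3-/- livers, at -0.56 (SE 0.29) and -0.26 (SE 0.20), whereas after the fast they differed by -2.75 (SE 0.29) and -2.03 (SE 0.20).

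Interactions on the ketogenic diet were called in 5 of the 10 genes, at 15.9% of all probe sets: *Cideb*, *Fitm1*, *Pnpla2* and *Mgll* with a positive value and *Plin2* with a negative one. For *Cideb*, *Fitm1* and *Mgll* the positive value means that losing both factors lowered the gene by less than the sum of the single losses. For *Fitm1* that sum would reach below the array medians, and whether the arrays could show so large a fall was not tested. The effect of CREB3L3 loss differed between the regimens in 3 genes, *Cideb*, *Fitm1* and *Mgll*, all more negative on the diet (background 13.8%). That of the combined loss differed in 4, *Cideb*, *Plin4* and *Fitm1* more negative and *Pnpla2* more positive (background 8.26%). That of PPARα loss differed in none of the 10 at the threshold (background 4.83%), with *Plin5* short of it at 1.56 (adjusted p = 0.0328).

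The regimens themselves were compared within each genotype. Ketogenic against fasted WT livers gave 0 calls among the 10 genes by limma (background 4.25%). *Plin2* differed there by -0.39 (adjusted p = 0.115, SE 0.15), which missed the threshold. Called between the regimens were *Plin4* alone in PPARα-/- livers, 1 of 10 genes where the background was 10.2%, 4 genes in CREB3L3-/- livers, *Cideb*, *Plin5*, *Fitm1* and *Mgll*, all lower on the diet (background 25.4%), and 5 in PPARα/CREB3L3-/- livers, with *Cideb*, *Plin2*, *Plin4* and *Fitm1* lower and *Pnpla2* higher on the diet (background 14.5%). With an adjusted p under 0.05 as the rule, the counts changed by over 1.5 times in some comparisons: the fasted interaction had 0 genes (background 0.169%), the difference between regimens 2 in PPARα-/- livers (background 16.7%) and 9 in CREB3L3-/- livers (background 37.7%), and the difference in the effect of PPARα loss 1, *Plin5* (background 6.81%).

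The CREB3L3-/- livers on the ketogenic diet differed from WT also in markers of cell types, measured on the same arrays. The summed linear intensity of 7 hepatocyte markers was 25850 to 36477 in CREB3L3-/- livers and 46127 to 49949 in WT livers. That of 7 macrophage markers was 4326 to 5076 in CREB3L3-/- livers and 2379 to 3555 in WT livers. In CREB3L3-/- livers the sum was also higher, without overlap, for 6 stellate cell markers, at 2754 to 3689 against 2423 to 2712 in WT, and for 4 cholangiocyte markers, at 306 to 533 against 129 to 165 in WT. The sum of 3 neutrophil markers overlapped between the groups, at 89.7 to 1034 in CREB3L3-/- and 49.9 to 133 in WT livers. The 7 adipocyte markers summed to 801 to 1618 in CREB3L3-/- and 592 to 710 in WT livers. Their mean log2 overlapped, at 4.83 to 5.30 against 4.85 to 4.94 in WT. The median log2 difference of the 7 was -0.19, with 1 called higher and 1 lower. *Adipoq*, *Retn*, *Lep* and *Plin1* were below the array median in every liver, so the sum rests on *Lipe*, *Cd36* and *Fabp4*. In PPARα/CREB3L3-/- livers on the diet the hepatocyte sum was 37390 to 42584 and the macrophage sum 1170 to 1800. PPARα-/- livers had 38560 to 40518 and 1254 to 1748, so both lists were below WT in either group. Of the 7 hepatocyte markers, 5 also had a called interaction of both losses on the diet, all positive. For each knockout, 5 of the 7 differed by a call in its effect between the regimens, all more negative on the diet. The part of these shifts in the changes on the ketogenic diet, interactions included, was not tested. After the fast the hepatocyte sum was 53080 to 55882 in mice without both factors, 54550 to 57828 in mice without PPARα, 48192 to 51733 in mice without CREB3L3 and 47693 to 53434 in WT mice. The part of cell types in the changes after the fast, among them the 17.1-fold decrease of *Cidec* in CREB3L3-/- livers, was not tested.

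**Figure D4:**
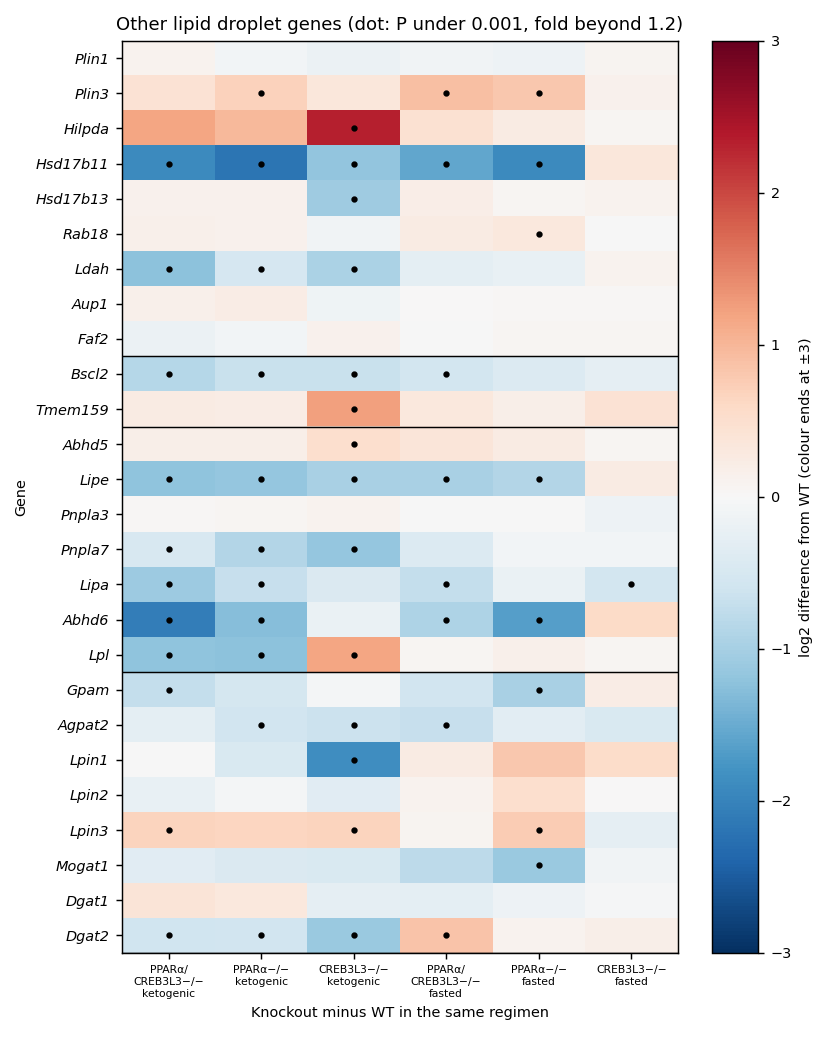
Log2 difference from WT (colour, red higher, blue lower, ends at ±3) of 26 other genes of droplets and triglyceride turnover (rows, grouped by role) in the 3 knockouts on the ketogenic diet (left) and after the fast (right). Dots mark called genes; *Hsd17b11* is blue with a dot in all columns but that of fasted CREB3L3-/- livers.

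Other genes of the droplet and of triglyceride turnover were taken from a list of 29, of which 26 were measured and *Lipc*, *Fitm2* and *Acsl3* were not matched to a probe set of their own. On the ketogenic diet 11 of the 26 were called in PPARα/CREB3L3-/- livers (background 14.0%), 10 lower and 1 higher, 11 in PPARα-/- livers (background 10.9%), 10 lower and 1 higher, and 14 in CREB3L3-/- livers (background 21.4%), 9 lower and 5 higher. After the fast 8 were called in PPARα/CREB3L3-/- livers (background 6.98%), 6 lower and 2 higher, 8 in PPARα-/- livers (background 4.00%), 5 lower and 3 higher, and 1 in CREB3L3-/- livers (background 1.39%), *Lipa*, the lysosomal lipase, lower at -0.54 (adjusted p = 0.052, SE 0.14). Their median log2 difference was -0.20, -0.26 and -0.24 on the diet and -0.01, 0.02 and 0.06 after the fast, in PPARα/CREB3L3-/-, PPARα-/- and CREB3L3-/- livers in this order.

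*Hsd17b11*, a dehydrogenase found on droplets, had the lowest P of the list in both regimens. It was at -1.92 (adjusted p = 2.27e-13, SE 0.10) in PPARα/CREB3L3-/-, -2.20 (adjusted p = 2.99e-13, SE 0.11) in PPARα-/- and -1.17 (adjusted p = 4.43e-10, SE 0.10) in CREB3L3-/- livers on the diet, and at -1.56 (SE 0.10), -1.91 (SE 0.11) and 0.33 (SE 0.10) after the fast. As with *Mgll*, the effect of CREB3L3 loss was more negative on the diet than after the fast, at -1.50 (adjusted p = 1.25e-08, SE 0.14). *Lipe*, hormone-sensitive lipase, which cleaves diacylglycerol, was lower on the diet, at -1.21 (adjusted p = 2.67e-08, SE 0.12), -1.16 (adjusted p = 2.98e-07, SE 0.13) and -0.98 (adjusted p = 3.78e-07, SE 0.12) in the same order, and after the fast it was at -0.98 (adjusted p = 4.25e-06, SE 0.12) and -0.87 (adjusted p = 0.000145, SE 0.13) in the PPARα-deficient groups, with 0.25 (SE 0.12) in CREB3L3-/- livers. *Abhd6*, a second monoacylglycerol lipase, was called only in livers without PPARα: -2.08 (adjusted p = 1.36e-09, SE 0.18), -1.28 (adjusted p = 2.09e-05, SE 0.20) and -0.21 (SE 0.18) on the diet and -0.92 (adjusted p = 0.00103, SE 0.18), -1.66 (adjusted p = 3.11e-06, SE 0.20) and 0.58 (SE 0.18) after the fast, of which the CREB3L3-/- values missed the threshold.

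*Plin3*, a perilipin of cytosol and droplets, was higher in fasted PPARα/CREB3L3-/- livers by 0.91 (adjusted p = 4.08e-05, SE 0.14) and in PPARα-/- livers by 0.81 (adjusted p = 0.00102, SE 0.15), opposite to *Plin5*. *Dgat2*, which adds the last fatty acid of triglyceride, was at 0.85 (adjusted p = 7.01e-06, SE 0.11) in fasted PPARα/CREB3L3-/- livers and at -0.61 (adjusted p = 0.000172, SE 0.11) in those on the diet, and at -1.10 (adjusted p = 1.03e-08, SE 0.11) in CREB3L3-/- livers on the diet. *Agpat2*, which acylates lysophosphatidic acid, was lower in fasted PPARα/CREB3L3-/- livers, at -0.69 (adjusted p = 0.000311, SE 0.12). On the diet *Ldah*, a droplet-associated hydrolase, was at -1.23 (adjusted p = 6.41e-09, SE 0.12), -0.51 (adjusted p = 0.00457, SE 0.13) and -0.94 (adjusted p = 2.94e-07, SE 0.12) and *Pnpla7*, a lysophospholipase, at -0.48 (adjusted p = 0.00297, SE 0.12), -0.88 (adjusted p = 8.16e-06, SE 0.13) and -1.15 (adjusted p = 9.44e-09, SE 0.12) in PPARα/CREB3L3-/-, PPARα-/- and CREB3L3-/- livers.

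Over the 30 arrays the 10 genes did not vary as one. As a description over arrays that include the 8 groups, the closest pairs were *Plin5* and *Mgll* with a Pearson correlation of 0.862, *Fitm1* and *Mgll* with 0.86, and *G0s2* and *Mgll* with 0.849. After the group means were removed, these were 0.595, 0.538 and 0.401, and the closest pair was *Cideb* and *Mgll* with 0.767. The most opposed pair was *Cidea* and *Cideb* at -0.594, which became -0.197 within groups, followed by *Plin2* and *Pnpla2* at -0.578 and 0.0258 within groups. Among all other genes, the patterns most like *Cidec* were those of *Tor1b* (0.927), *Creb3l3* (0.924) and *Tmed4* (0.919). For *Fitm1* these were *Acaa1b* (0.951), *Adtrp* (0.945) and *Crot* (0.944), for *Mgll* *Decr2* (0.957), *Adck5* (0.953) and *Eci1* (0.946), and for *Plin5* *Ech1* (0.905), *Etfb* (0.901) and *Gm15441* (0.899). *Cideb* was closest to *Cpn1* (0.956), *Amt* (0.954) and *Slc10a5* (0.947), *G0s2* to *Pycrl* (0.881), *Crat* (0.867) and *Adck5* (0.855), and *Pnpla2* to *Pigo* (0.856), *Uqcr10* (0.854) and *Mecr* (0.828). For *Plin2* the 3 closest were *Eya3* (0.897), *Nfya* (0.864) and *H2bc8* (0.861), for *Plin4* *Ifi203* (0.897), *Irf9* (0.889) and *Srrm2* (0.877), and for *Cidea* *Pdcd5* (0.841), *Cpsf3* (0.81) and *Ncapd3* (0.809).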

How the data were processed

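Total RNA of single livers was hybridized to Affymetrix Mouse Gene 1.1 ST arrays, 1 per mouse, so p-values measure the spread between these mice. The authors normalized the arrays by RMA (AffyPLM, versions not given in the sources used here), and deposited them as log2 intensity of every probe set on every array. The methods name a remapped chip definition, whereas the deposited identifiers are of the manufacturer's kind. RMA sets all arrays to 1 distribution, so a shift shared by most genes would not be seen. Labelling differs between sources: an Ambion kit in the methods, an Affymetrix assay in the labels.

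Of 35556 probe sets, 21218 carry 1 gene symbol, 1881 several and 12457 none. From the deposited values, limma 3.58.1 in R 4.3.3 was fitted with 1 mean for each of 8 groups, an intensity trend, 22 residual and 3.47 prior degrees of freedom. P-values were corrected across all probe sets (Benjamini-Hochberg), and 19 comparisons were made. The number of arrays limits the precision. The code was tested on simulated data. Members and lists were chosen with earlier results of these data known. Named are the 10 genes, up to 6 others per regimen by lowest P among those called, and the 3 genes most like each member by Pearson correlation, each gene on its probe set with the highest mean. RefSeq annotation places other genes over the spans of *Cideb* (*Nop9*, *Ltb4r2*), *Cidec* (*Gm52871*), *Plin2* (*Gm12551*), *Plin4* (*Hdgfl2*), *Mgll* (*Gm26588*) and *Cidea* (*B430212C06Rik*). Replicate numbers in the labels showed no pairing over all probe sets together: deviations of livers with the same number correlated at -0.111 to 0.121 over 51 pairs, with 2 above 0.1. Such a correlation cannot exclude that single genes follow the number. *Cidec* in WT livers fell with rising replicate number in both regimens, though not in all other groups, and the cause was not tested. Alternatives were the arrays of 1 regimen, a replicate block, no trend, the intensity-based moderated t-statistic, array weights, median centring, a repeated quantile normalization, probe sets at or above the median, an adjusted p threshold and each array left out. Figures used Python and matplotlib.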

Additional observations from a re-analysis of the deposited data

Results flagged for a closer look

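Of 60 sets of 4 livers, 1 held a liver apart from the others: fasted PPARα/CREB3L3-/- replicate 2 read 6.72 for *Fitm1*, against 7.88 to 8.02 in the other 3, where chance gives about 1 in 20. Differences between effects were tested 50 times in these genes, and 13 passed P under 0.001 with a fold beyond 1.2. Of all probe sets, 15.9% passed for the ketogenic interaction and 0.762% for the fasted one. For differences between regimens 8.26% passed for the combined loss, 4.83% for PPARα loss and 13.8% for CREB3L3 loss. The interaction of both losses passed for *Fitm1* after the fast (log2 2.15, adjusted p = 0.0841 by limma) and, on the ketogenic diet, for *Fitm1* (2.24), *Mgll* (1.67), *Cideb* (0.961), *Pnpla2* (0.941) and *Plin2* (-1.23). Both *Fitm1* interactions and those of *Cideb* and *Pnpla2* were lost when certain single PPARα-/- livers were left out. The effect of CREB3L3 loss differed between ketogenic diet and fast for *Fitm1* (-2.50), *Mgll* (-2.01) and *Cideb* (-1.26). That of losing both factors differed for *Fitm1* (-2.88), *Plin4* (-2.38), *Cideb* (-1.08) and *Pnpla2* (1.04).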

How the results depend on the processing

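No result changed sign under any alternative run while called. Counts of the 10 genes that moved by over 1.5 times were as follows, with the cause not tested. In a fit of 1 regimen's arrays, 2 genes instead of 1 were called in fasted CREB3L3-/- against WT livers, 2 instead of 4 in ketogenic PPARα-/- against WT livers, and 1 instead of 2 in ketogenic PPARα/CREB3L3-/- against PPARα-/- livers. Array weights gave 3 instead of 1 in fasted PPARα/CREB3L3-/- against PPARα-/- livers. Between the regimens in PPARα-/- livers, 2 instead of 1 were called with array weights, median centring, probe sets at or above the median and an adjusted p under 0.05. The effect of PPARα loss differed between regimens in 1 gene instead of 0 with array weights and an adjusted p. By adjusted p the fasted interaction had 0 instead of 1, and CREB3L3-/- livers had 9 instead of 4 between regimens. With a replicate block, ketogenic PPARα/CREB3L3-/- against PPARα-/- livers gave 4 instead of 2, adding *Plin2* and *G0s2*. With the block the call of *Plin5* in ketogenic PPARα-/- against WT livers was lost and the difference of *Cidec* between regimens in the effect of CREB3L3 loss was gained, and it changed no other call.

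With each array left out, counts against WT ran from 8 to 8 (combined), 2 to 4 (PPARα-/-) and 5 to 8 (CREB3L3-/-) on the diet and from 6 to 7, 3 to 4 and 1 to 1 after the fast. PPARα/CREB3L3-/- minus PPARα-/- ran from 1 to 3 and 1 to 2, minus CREB3L3-/- from 4 to 4 and 4 to 6, the interaction from 4 to 5 and 0 to 1, in this order of regimens. Between regimens they were 5 to 6, 1 to 1, 4 to 6 and 0 to 0 in combined, PPARα-/-, CREB3L3-/- and WT livers, and for the effects 4 to 4, 0 to 0 and 3 to 4. Groups of 3 or 4 livers leave wide intervals, and *Cidea*, below the array medians, and *Fitm1* in ketogenic PPARα/CREB3L3-/- livers had low signal.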

Other observations

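Genes named here were chosen after their values were seen. *Hilpda*, which encodes a small droplet protein known to inhibit adipose triglyceride lipase, was higher in CREB3L3-/- against WT livers on the ketogenic diet by 2.34 (adjusted p = 3.51e-06, SE 0.34), while *G0s2*, another inhibitor of that enzyme, was at -1.08 there. *Hilpda* was at 1.19 (adjusted p = 0.0123, SE 0.34) in PPARα/CREB3L3-/- and 0.97 (adjusted p = 0.0795, SE 0.37) in PPARα-/- livers, not called, and no fasted knockout was called. *Lpl*, lipoprotein lipase, took opposite directions on the diet, at -1.20 (adjusted p = 0.00101, SE 0.26) in PPARα/CREB3L3-/-, -1.24 (adjusted p = 0.00208, SE 0.28) in PPARα-/- and 1.19 (adjusted p = 0.000648, SE 0.26) in CREB3L3-/- livers, with macrophage markers below WT in both PPARα-deficient groups and above WT in CREB3L3-/- livers, and their part in the result was not tested. *Lpin1*, a phosphatidate phosphatase of triglyceride synthesis, was lower in CREB3L3-/- livers on the diet, at -1.87 (adjusted p = 0.00088, SE 0.42), and *Hsd17b13*, a droplet protein of hepatocytes, at -1.08 (adjusted p = 1.15e-05, SE 0.17), while in PPARα/CREB3L3-/- livers they were at -0.01 (SE 0.42) and 0.12 (SE 0.17). The CREB3L3-/- livers spread widely, at 7.18 to 10.29 for *Lpin1* (WT 10.30 to 11.24) and 10.38 to 11.83 for *Hsd17b13* (WT 12.20 to 12.33).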
